A study of Mus musculus with 6 samples.

Results

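Interferon-stimulated genes are the genes that cells switch on when interferon binds its receptor. The 36 members described here were taken by gene symbol from a list chosen with earlier results of these data known. Each matched exactly 1 of the 50559 gene names in the deposited tables. By their usual textbook assignment, 30 were classed as type I members, which are induced mainly by interferons alpha and beta, and 6 as gamma-responsive members, which are known as strong targets of interferon gamma. The study measured RNA from the auditory cortex of C57 mice, the common laboratory strain, in 3 libraries labelled as WNT3 controls and 3 labelled as overexpressing WNT3, to ask which molecular changes follow overexpression of this secreted Wnt ligand. The labels give no age, vector, promoter or control treatment, and do not say whether the replicates are separate animals, and p-values therefore speak only to the scatter among these 6 libraries, which may be technical. The tissue label reads auditory cortex while the extraction protocol speaks of striatum, and cortical markers were well above striatal ones in every library. Expression is given as CPM, read counts scaled for library size with TMM factors. The summed CPM of 10 cortical markers ranged from 1321 to 1631, and that of 10 striatal markers from 291 to 475.

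Interferons alpha and beta act through the receptor chains Ifnar1 and Ifnar2 and the kinases Jak1 and Tyk2, which lead to a complex that holds Stat2 and Irf9. That complex binds the interferon-stimulated response element (ISRE) in the promoters of its targets. Interferon gamma acts through Ifngr1, Ifngr2, Jak1 and Jak2, and many of its targets carry the gamma-activated site (GAS). The programmes share many genes, so a class names only the usual main inducer, and many members answer both kinds. In brain, microglia, astrocytes, endothelial cells and neurons can all mount this response, and leukocytes that enter the tissue can show it too.

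The ISRE core was visible in the promoters of many members, and stretches are shown here for some of them, with values given further on. RefSeq promoter windows on GRCm38.p6 were found for 26 of the 36 members, with 31 transcription starts in all. The 250 bases before each start were searched on both strands for the ISRE core (GAAA, any 2 bases, GAAA) and the GAS (TTCNNNGAA). The ISRE core was found in 14 of the 31 member windows (45.2%), against 2.98% of all 32851 windows of the same length. In the stretches, each written 5′ to 3′ on the strand of the gene, capitals mark the ISRE core, which reads TTTC, any 2 bases, TTTC where it lies on the other strand. Copies can overlap each other.
Isg15 (chr4:156200860-156200911, minus strand): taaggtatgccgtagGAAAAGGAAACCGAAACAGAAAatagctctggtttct
Oas1a (chr5:120907526-120907560, minus strand): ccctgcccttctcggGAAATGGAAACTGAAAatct
Ifit1 (chr19:34640770-34640828, plus strand): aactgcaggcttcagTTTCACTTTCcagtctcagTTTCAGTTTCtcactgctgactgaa
Ifit3 (chr19:34583358-34583431, plus strand): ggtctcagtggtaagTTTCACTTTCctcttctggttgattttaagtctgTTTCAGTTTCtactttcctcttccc
Ifit3b (chr19:34607754-34607827, plus strand): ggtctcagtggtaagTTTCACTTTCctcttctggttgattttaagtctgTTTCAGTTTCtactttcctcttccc
Stat2 (chr10:128270261-128270300, plus strand): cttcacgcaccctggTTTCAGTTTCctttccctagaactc
Gbp2 (chr3:142620589-142620628, plus strand): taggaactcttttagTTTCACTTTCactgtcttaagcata
Gbp7 (chr3:142530268-142530307, plus strand): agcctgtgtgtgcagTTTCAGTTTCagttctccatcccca

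Isg15 held 3 overlapping copies of the core, and Oas1a, Ifit1, Ifit3 and Ifit3b held 2 each. Bst2 and the gamma-responsive Gbp3, whose stretches are not shown, also held 2 each. The 74-base stretches of Ifit3 and Ifit3b were identical, letter for letter. The GAS letters were found in 7 of the 31 member windows (22.6%) and in 7.02% of all windows, and 3 of the 7 windows of gamma-responsive members held them. The ISRE core was present in 10 of the 24 windows of type I members and in 4 of the 7 windows of gamma-responsive members. These matches describe letters in a window and do not show that a factor bound there.

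**Figure D1:**
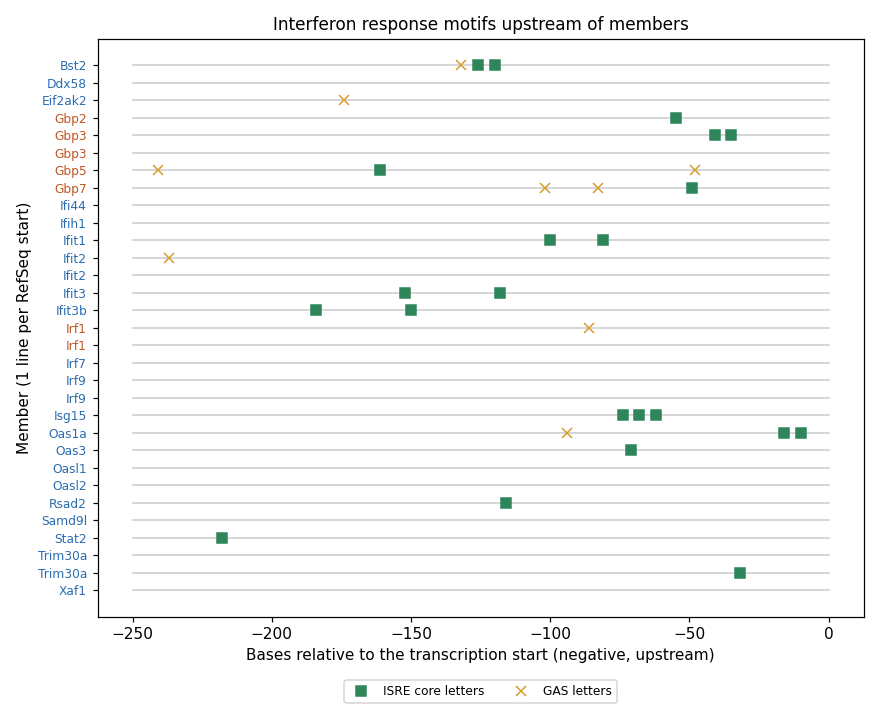
Position of the ISRE core (green squares) and the GAS letters (crosses) in the 250 bases before each of 31 RefSeq transcription starts of 26 members. The x axis is the distance in bases from the start, 1 grey line stands for 1 start, and names in blue are type I and in orange gamma-responsive members. Of the 31 lines, 14 carry a square and 7 a cross.

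Wnt3 itself lay above all controls in each of the overexpression libraries. Its expression was 2.70, 1.91 and 1.74 CPM in controls 1 to 3 and 98.8, 7.45 and 8.71 CPM in overexpression libraries 1 to 3, so the first of these carried far more of it than the others. The log2 fold change was 4.18 ± 1.02 (SE, n = 3 per group) (adjusted p = 0.822, edgeR), and it was 1.94 without overexpression library 1. Total counts ranged from 42614588 to 71803617 per library. Control 2 stood apart from the rest, as it was the highest of the 6 libraries for 35.8% of the 22360 tested genes.

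Every member had its highest level in overexpression library 1. This held for 36 of 36 members, where 15% of all tested genes had their highest level in that library. In 19 of the members (18 of the 35 that could be tested) the level there was at least 2-fold above that of every other library, a gap found in 0.622% of tested genes. The members were chosen with earlier results of these data known, so these shares describe the list and test nothing. The ratio of overexpression library 1 to the next highest library had a median of 2.17 and ran from 1.06 for Irf9 to 6.59 for Oas3. Overexpression libraries 2 and 3 did not share this pattern: relative to the mean of the controls, the members' median, as a log2 difference, was 1.53, -0.06 and 0.09 in overexpression libraries 1 to 3, and 0.03, -0.12 and 0.10 in controls 1 to 3. In overexpression library 2, 12 of 36 members lay below every control (22.7% of tested genes) and 10 above every control (23.2%). In library 3, 6 lay below (17.8%) and 11 above (18.8%).

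**Figure D2:**
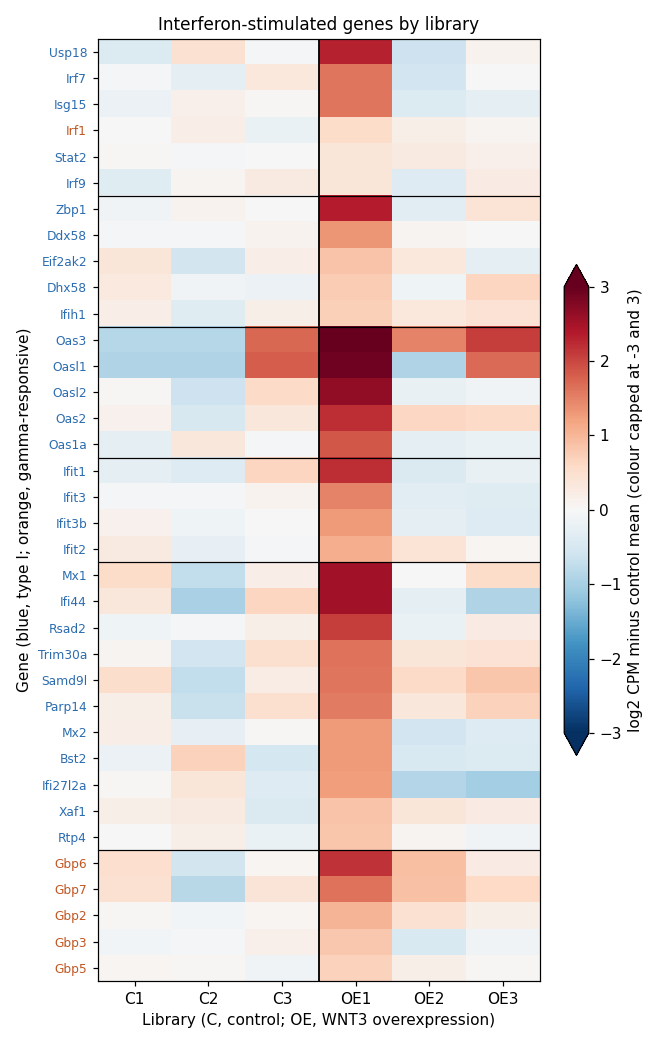
Heat map of the 36 members (rows, grouped by role) in the 6 libraries (columns; C, control and OE, overexpression). Colour gives log2 CPM minus the mean of the 3 controls, capped at 3 on either side of 0, and names in blue are type I and in orange gamma-responsive members. The column of OE1 is red in all 36 rows, while OE2 and OE3 hold both colours and the median over members is -0.06 and 0.09.

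Fitted over the groups, no member passed the test. Of the 36 members, 35 had enough counts to be tested (Oas3 did not), and all 35 had a log2 fold change above 0, as did 49.3% of all tested genes, with a median of 0.61 against -0.01 over all tested genes. In edgeR's quasi-likelihood test, with Benjamini-Hochberg adjusted p-values across the whole table, 0 members and 0% of tested genes passed 0.05, and the adjusted p of members ran from 0.822 to 0.951. At an unadjusted p under 0.05 there were 4 members, all higher (Oas2, Gbp6, Gbp7 and Samd9l), where 1.86% of tested genes reached it on that side, and 0 were lower, where 2.8% of tested genes were. DESeq2 called 0 members as well, out of 0.182% of its tested genes, with 7 of 36 members higher at an unadjusted p under 0.05 (1.77% of its tested genes). Without overexpression library 1, 19 members were above 0 (48.3% of tested genes) and 16 below it, the median was 0.05, and 0 were higher at an unadjusted p under 0.05 (1.24% of tested genes). Without control 2, that count was also 0 (3.07%), while all 36 members, Oas3 being tested there, were above 0 (53.2%) with a median of 0.62. The count was 11 of 36 without overexpression library 2 (1.14% of tested genes), 5 of 35 without overexpression library 3 (1.65%), 3 of 36 without control 1 (2.47%) and 4 of 36 without control 3 (2.65%). Oas3, tested in the fits of 36, was among the 11 and the 4.

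**Figure D3:**
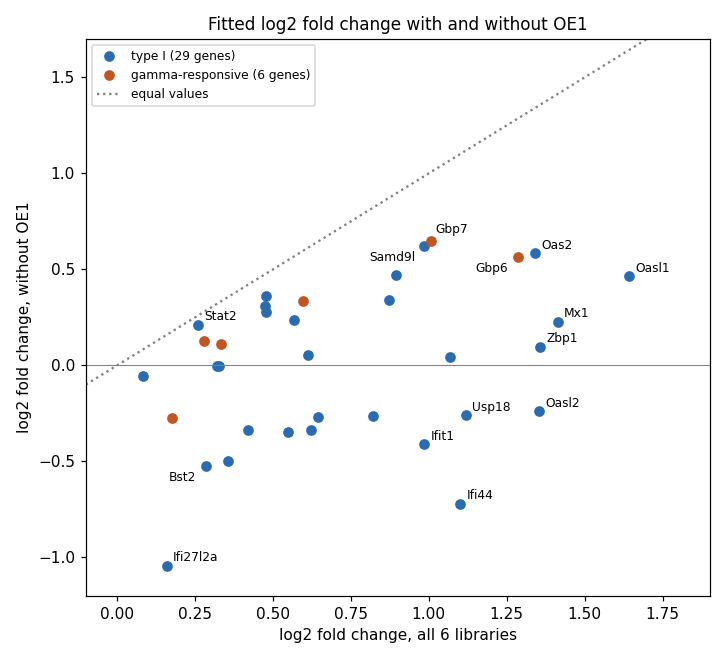
Fitted log2 fold change of the 35 tested members (overexpression against control) with all 6 libraries (x axis) and without overexpression library 1 (y axis). Each point is a gene, blue for type I and orange for gamma-responsive members, and the dotted line marks equal values. All points lie right of 0 on the x axis, and 16 lie below 0 on the y axis.

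Groups did not overlap in 6 members, Stat2, Oas2, Ifih1, Gbp2, Gbp7 and Samd9l, with every overexpression library above every control. This is 6 of 35 tested members, where 5.89% of tested genes had such groups on the higher side. No member had groups apart on the lower side (6.04% of tested genes). Leaving out overexpression library 1 could not change these 6, because it was the highest library for every member. That omission is therefore no check on them, while over all tested genes the share became 9.78%. Without control 2 there were 8 members on the higher side (11.2% of tested genes). The remaining 30 members overlapped with all 6 libraries in.

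Among the signalling members, Stat2 was separated by group and Irf7, Usp18 and Isg15 by library. Gene positions are those of the GENCODE M21 annotation on mm10, the build named by the submitters. Stat2 (chr10:128270559-128292849), a transcription factor of the type I complex, stood at 32.3, 30.8 and 32.2 CPM in the controls and 40.8, 38.1 and 35.2 CPM in overexpression. The controls were close together and all 3 overexpression libraries lay above them, with a log2 fold change of 0.26 ± 0.15 (SE), or 0.21 without overexpression library 1. Irf9, which binds DNA in the same complex, was at 9.95, 13.7 and 15.5 CPM against 16.4, 9.75 and 15.2 CPM, so that the groups overlapped over most of their range (0.08 ± 0.27, log2 ± SE). Irf7 (chr7:141262706-141266481), the factor that amplifies interferon alpha production, was at 1.88, 1.63 and 2.45 CPM in the controls and 6.06, 1.30 and 1.97 CPM in overexpression. Overexpression library 2 was below every control and library 3 was among them, and the log2 fold change of 0.64 ± 0.56 (SE) became -0.27 without library 1.

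Usp18 (chr6:121245906-121270917), a protease that removes Isg15 from proteins and dampens the type I receptor, was at 0.84, 1.58 and 1.11 CPM in the controls and 5.76, 0.72 and 1.23 CPM in overexpression. Its level in overexpression library 1 was 3.65-fold that of the next library. Isg15 (chr4:156199424-156200818), the ubiquitin-like modifier whose promoter carried 3 copies of the ISRE core, was at 1.36, 1.71 and 1.56 CPM against 4.73, 1.157 and 1.27 CPM, so that libraries 2 and 3 were below all 3 controls. Irf1 (chr11:53770014-53778374), an early transcription factor of the gamma response, was at 5.66, 6.40 and 4.85 CPM in the controls and 8.26, 6.36 and 5.88 CPM in overexpression. Its groups overlapped through control 2 alone, and its log2 fold change was 0.28 ± 0.25 (SE).

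The sensors of foreign or misplaced nucleic acid differed among themselves. Ifih1 (chr2:62595798-62646255), also called Mda5, which detects long duplex RNA, was at 9.27, 6.22 and 9.12 CPM in the controls and 13.3, 10.1 and 10.9 CPM in overexpression, with groups apart and a log2 fold change of 0.48 ± 0.24 (SE). Ddx58 (chr4:40203773-40239828), which encodes the RNA sensor RIG-I, was at 4.90, 4.91 and 5.46 CPM against 12.9, 5.40 and 5.13 CPM. Its overexpression libraries 2 and 3 lay inside the control range, and its log2 fold change of 0.61 ± 0.38 (SE) was 0.05 without library 1. Zbp1 (chr2:173206612-173218923), a sensor of left-handed nucleic acid linked to cell death, had 0.23, 0.28 and 0.26 CPM in the controls and 1.44, 0.19 and 0.35 CPM in overexpression, a gap of 4.13-fold between library 1 and the next. Eif2ak2 (chr17:78852564-78882573), the kinase PKR that halts translation on duplex RNA, was at 18.1, 9.65 and 16.3 CPM and 25.8, 17.6 and 11.5 CPM, and here the lowest control and the lowest overexpression library were near each other. Dhx58, a helicase that modulates the other RNA sensors, ranged from 0.93 to 1.29 CPM in the controls and from 0.96 to 1.82 CPM in overexpression.

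The oligoadenylate synthetase (OAS) family, whose enzymes make a messenger that activates an RNA-degrading nuclease, showed some of the widest gaps between libraries. All 5 members were at least 2-fold above every other library in overexpression library 1. Oas2 (chr5:120730333-120749853) was at 1.08, 0.70 and 1.27 CPM in the controls and 4.69, 1.54 and 1.48 CPM in overexpression, with groups apart. Its log2 fold change was 1.34 ± 0.53 (SE, n = 3 per group) with an adjusted p of 0.822 by edgeR, or 0.58 without library 1. Oasl2 (chr5:114896936-114912234), a relative that carries ubiquitin-like domains, was at 4.60, 2.92 and 6.72 CPM and 28.4, 3.86 and 4.16 CPM, so that libraries 2 and 3 lay inside the control range. Oas1a (chr5:120896256-120907521) was at 0.56, 0.90 and 0.67 CPM and 2.62, 0.58 and 0.60 CPM. Its near relatives at the same locus may share reads with it.

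Oas3 and Oasl1 were close to the limit of detection. Oas3 (chr5:120753098-120777661), the longest enzyme of the family, had counts of 0, 0 and 9 in the controls against 88, 9 and 17, and was too low to be tested. Oasl1 had counts of 0, 0 and 10 against 26, 0 and 13, and its fitted log2 fold change of 1.64 ± 1.57 (SE) rests on these few reads. A count of 0 allows up to 3 counts, which is 0.0418 to 0.0704 CPM in these libraries, for counting error only.

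The 4 IFIT genes, whose proteins bind viral RNA ends and block its translation, lie side by side on chromosome 19 (chr19:34550694-34576419 for Ifit2 and chr19:34640871-34650009 for Ifit1). Ifit1 was at 3.64, 3.34 and 6.92 CPM in the controls and 20.6, 3.21 and 3.73 CPM in overexpression. Ifit3 (chr19:34583531-34588731) was at 12.04, 11.9 and 13.2 CPM and 35.03, 9.78 and 9.64 CPM, with libraries 2 and 3 below every control. Ifit3b (chr19:34607970-34613401) was at 17.2, 5.70 and 5.38 CPM in overexpression and 6.38 to 7.63 CPM in the controls, again with libraries 2 and 3 below every control. Ifit3 and Ifit3b had identical promoter stretches. Reads may have been split between these genes if their transcripts are also alike, which was not examined. Ifit2 stood apart within the family: it was at 16.7, 11.6 and 13.6 CPM against 29.2, 18.4 and 14.4 CPM, and its log2 fold change stayed above 0 without library 1 (0.57 ± 0.29 with all libraries and 0.24 ± 0.26 without, SE). The log2 fold changes of Ifit1, Ifit3 and Ifit3b were 0.99, 0.55 and 0.42 with all libraries and -0.41, -0.35 and -0.34 without it.

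The other effectors split in the same way. Samd9l (chr6:3372257-3399572), which restricts virus growth and translation, was at 7.88, 3.25 and 6.43 CPM in the controls and 16.8, 8.18 and 9.73 CPM in overexpression, with groups apart and a log2 fold change of 0.98 ± 0.39 (SE). Parp14 (chr16:35832874-35871544), an ADP-ribosyltransferase, was at 4.67, 2.60 and 5.78 CPM and 12.3, 5.27 and 6.71 CPM, with overexpression library 2 inside the control range. Trim30a (chr7:104409025-104465193), a ubiquitin ligase family member that restrains inflammatory signalling, was at 3.26, 2.05 and 4.33 CPM and 9.56, 3.95 and 4.16 CPM. In these 3 genes control 2 was the lowest library. Without that library their log2 fold changes came with unadjusted p-values of 0.0655, 0.128 and 0.178 by edgeR, against 0.0366, 0.0588 and 0.0789 with all libraries.

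Bst2 (chr8:71534255-71537456), the surface protein tetherin that holds budding virus on the cell, was at 2.58, 4.69 and 2.02 CPM in the controls and 7.06, 2.10 and 2.18 CPM in overexpression. Here control 2 was the highest control. The remaining effectors were Mx1 and Mx2, dynamin-like antiviral proteins, Rsad2, an enzyme that makes a chain-ending nucleotide, Ifi44, Ifi27l2a, Xaf1, linked to cell death, and Rtp4, a receptor chaperone. Their levels in overexpression library 1 ran from 1.77 CPM for Ifi27l2a to 15.6 CPM for Xaf1. Rsad2 was at 6.47 CPM there and at 1.32 and 1.79 CPM in libraries 2 and 3, against 1.38, 1.45 and 1.72 CPM in the controls. Ifi27l2a had the lowest log2 fold change of any member without library 1, at -1.04 ± 0.53 (SE), against 0.16 with all libraries.

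**Figure D4:**
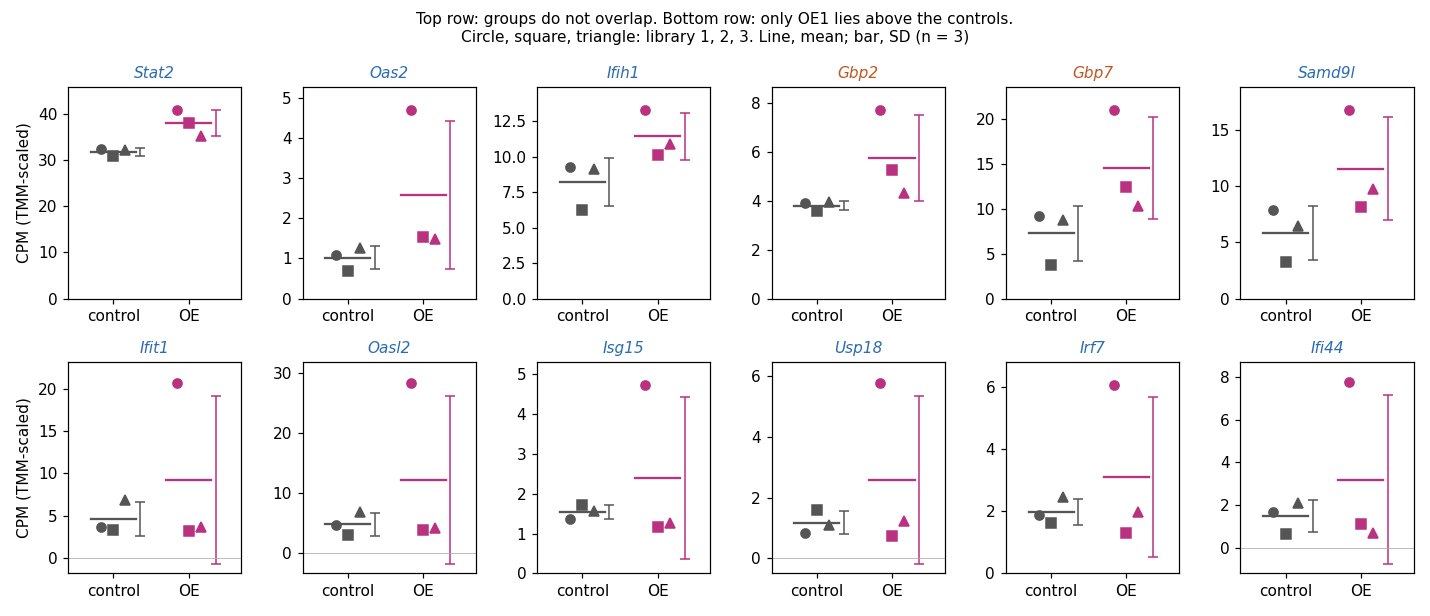
Expression in CPM (y axis, linear) of 12 members in the 3 control (grey) and 3 overexpression (magenta) libraries, with circle, square and triangle for libraries 1 to 3, a line for the mean and a bar for the SD (n = 3). In the top row the groups do not overlap, with Stat2 at 30.8 to 32.3 CPM in the controls and 35.2 to 40.8 CPM in overexpression. In the bottom row the circle of overexpression alone lies above the controls, as in Ifit1 at 20.6 CPM against at most 6.92 CPM.

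The guanylate-binding proteins, large GTPases that attack the membranes around microbes inside cells and are classic targets of interferon gamma, had a median above the control mean in all 3 overexpression libraries (log2 differences of 1.01, 0.46 and 0.18). Gbp2, Gbp3, Gbp5 and Gbp7 lie together on chromosome 3, and Gbp6 (chr5:105270702-105293698) lies on chromosome 5. Gbp7 (chr3:142530342-142550149) was at 9.20, 3.74 and 8.76 CPM in the controls and 20.95, 12.4 and 10.3 CPM in overexpression, with groups apart and a log2 fold change of 1.01 ± 0.40 (SE), or 0.65 without library 1. Gbp2 (chr3:142620602-142638008) was at 3.90, 3.59 and 3.94 CPM and 5.25 and 4.31 CPM in overexpression libraries 2 and 3, with 7.72 CPM in library 1. These groups were apart too, and the controls varied little.

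Gbp6 was at 3.57, 1.71 and 2.63 CPM in the controls and 11.5, 4.76 and 3.01 CPM in overexpression, where library 3 lay below control 1. Its log2 fold change was 1.28 ± 0.52 (SE), or 0.57 without library 1. Gbp3 (chr3:142560026-142573209) differed from its neighbours, at 7.18, 7.28 and 8.47 CPM and 13.3, 5.54 and 7.06 CPM, with libraries 2 and 3 below every control. Gbp5 (chr3:142493978-142522344) was at 3.66, 3.59 and 3.24 CPM and 5.69, 3.95 and 3.59 CPM. The family shares sequence, so reads of 1 gene may have been counted for another.

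Set against each other, the classes differed in which libraries carried their difference. Relative to the mean of the controls, the medians in overexpression libraries 1 to 3 were 1.58, -0.21 and 0.09 (log2) over the 30 type I members and 0.91, 0.32 and 0.13 over the 6 gamma-responsive members. The type I median was therefore higher by 0.67 in library 1 and lower by 0.53 in library 2, and in the controls the medians were within 0.11 of each other. At least 2-fold above every other library in library 1 were 18 of 30 type I members and 1 of 6 gamma-responsive members (Gbp6). In overexpression library 2, 4 of 6 gamma-responsive members and 6 of 30 type I members lay above every control (23.2% of tested genes), and 1 and 11 lay below every control (22.7%). The fitted medians were 0.62 for tested type I and 0.46 for gamma-responsive members, and -0.00 and 0.23 without library 1, so that their order turned when that library was left out. With all 6 libraries the order also turned on log2(TPM + 1), the deposited length-scaled values, at 0.50 and 0.53. On log2(TPM + 0.1) it did not (0.66 and 0.64). The difference between classes was not tested, and 5 of the 6 gamma-responsive members belong to 1 gene family.

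**Figure D5:**
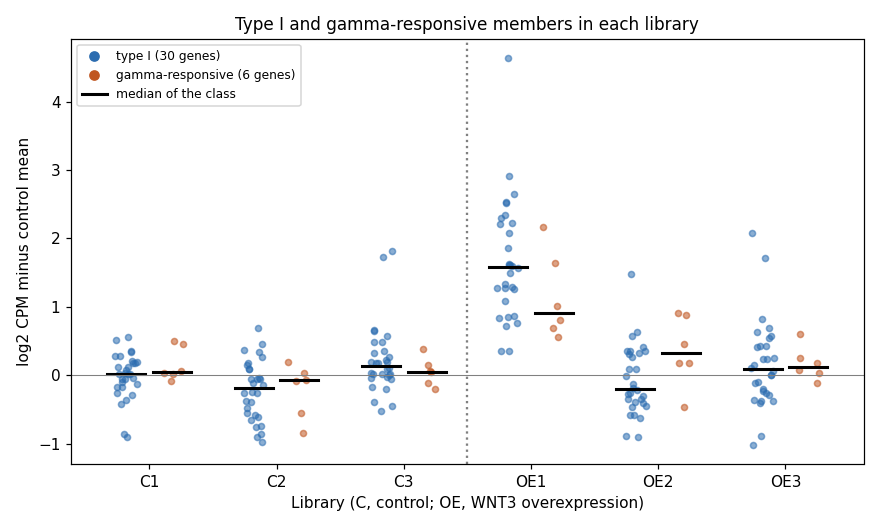
Log2 CPM minus the control mean (y axis) of each of 30 type I (blue) and 6 gamma-responsive (orange) members in the 6 libraries (x axis; C, control and OE, overexpression), with a black line at the median of each class. The medians are 1.58 and 0.91 in OE1, -0.21 and 0.32 in OE2 and 0.09 and 0.13 in OE3.

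Promoter letters and levels were set side by side. Relative to the mean of the controls, overexpression library 1 had a median log2 difference of 1.55 over the 14 members with an ISRE core in the searched window (from 0.36 to 4.63) and 1.21 over the 12 with a window that lacked it (from 0.36 to 2.91). In libraries 2 and 3 the medians were -0.23 and -0.04 with the core and 0.13 and 0.07 without it. The 10 members for which no window was found had a median of 1.87 in library 1 (from 0.77 to 2.53), above both other sets. Their medians in libraries 2 and 3 were -0.06 and 0.33. The ranges overlapped, and Oasl2, at 28.4 CPM in library 1, had no match in its window.

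On the TPM scale, which the authors gave and which accounts for transcript length, the members spanned a wide range of levels at baseline. Stat2 was the highest on average in the controls, at 17.4, 11.4 and 17.2 TPM, followed by Ifit3 at 14.5, 10.05 and 15.9 TPM and Irf9 at 9.72, 9.18 and 15.002 TPM. The spread between controls was wider than the gaps between these 3. Isg15 was at 4.27, 3.73 and 4.89 TPM, and the least abundant were Oas3 and Oasl1, both listed at 0 in controls 1 and 2. In overexpression library 1 the order changed, with Ifit3 at 45.5, Oasl2 at 24.4 and Stat2 at 23.4 TPM. Control 2 was the lowest control for 29 of 36 members in TPM, and in that library the short neuronal RNA Bc1 took 97702 TPM against 24336 to 32645 TPM elsewhere. The share over all genes was not counted, so this is not read as particular to the members. The median log2 difference of all genes between the groups was 0.18 on log2(TPM + 1), against -0.01 in edgeR.

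Of the ligands that start the response, hardly a read was found. None of 21 interferon genes could be tested and 18 had no count in any library, among them Ifnb1 and Ifng, which a count of 0 limits to 0.0418 to 0.0704 CPM per library. The other three were Ifne, Ifnk and Ifnz, with at most 5 counts in a library.

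Receptors and transducers were present in every library, and 0 of 10 had an unadjusted p under 0.05 in the edgeR test (9 higher and 1 lower, median log2 fold change 0.26, or 0.15 without library 1). Ifnar1 was at 44.9 to 50.3 CPM in the controls and 46.9 to 49.7 CPM in overexpression, Ifnar2 at 10.1 to 17.4 and 10.9 to 12.5 CPM. Ifngr1 was at 13.4 to 18.1 and 17.0 to 19.1 CPM, and Ifngr2 at 20.1 to 28.6 and 22.0 to 27.4 CPM. All 4 receptor genes overlapped between the groups. Tyk2, a kinase of the type I receptor, was at 15.3, 16.2 and 17.0 CPM and 18.6, 19.5 and 21.4 CPM, with groups apart. Such groups on the higher side were found in 2 of the 10 genes, where 5.89% of tested genes had them. Jak2, a kinase of the gamma receptor, was at 61.7, 42.3 and 73.7 CPM and 64.8, 83.0 and 86.8 CPM, with groups that overlapped.

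No inhibitor of the pathway and no gene of the upstream sensing machinery passed the adjusted test. Of 10 inhibitors, 8 were higher (49.3% of tested genes) and 2 lower, and 0 had an unadjusted p under 0.05. Socs3, a feedback inhibitor of cytokine receptors, had a log2 fold change of 0.79 ± 0.36 (SE), Samhd1, which destroys nucleotides and limits sensing, one of 0.40 ± 0.19 (SE), and Tnfaip3, a brake on inflammatory signalling, one of 0.50 ± 0.29 (SE). Of 16 sensing and induction genes, 14 were higher, where 49.3% of tested genes were. The endosomal RNA receptor Tlr7 was the 1 of 16 with an unadjusted p under 0.05 by edgeR (1.86% of tested genes on the higher side). Tlr7 was at 4.25, 3.96 and 5.93 CPM in the controls and 6.65, 8.79 and 7.32 CPM in overexpression, with groups apart and the highest level in library 2. Trim25, the ligase that activates RIG-I, and Zc3hav1, an antiviral protein that binds viral RNA, had log2 fold changes of 0.51 ± 0.24 and 0.88 ± 0.49 (SE), and both had groups apart. Groups were apart on the higher side in 4 of the 16 genes, where 5.89% of tested genes had such groups.

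Further interferon targets outside the member list showed the same leaning to overexpression library 1. Of 36 further type I targets, 34 were tested and 32 were higher, where 49.3% of tested genes were. Of the 36, 25 had their highest level in that library, where 15% of tested genes did. The list's median log2 fold change was 0.47, or 0.19 without that library. Slfn5, a regulator of growth and transcription, differed from that pattern with 6.85, 6.35 and 10.997 CPM in the controls and 16.2, 16.8 and 14.0 CPM in overexpression (0.96 ± 0.26, log2 ± SE). Ifi204, a DNA-binding protein of the innate response, was at 0.49, 0.57 and 0.40 CPM against 4.58, 1.04 and 1.162 CPM, and Oas1b, a further OAS gene, had a log2 fold change of 1.29 ± 0.52 (SE).

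Of 25 further gamma-responsive genes, 22 were higher (49.3% of tested genes) and 19 had their highest level in overexpression library 1 (15% of tested genes). The fitted median was 0.61 (log2), or 0.14 when that library was left out. Nlrc5, the transactivator of MHC class I genes, was at 1.57, 0.83 and 1.60 CPM in the controls and 6.96, 3.79 and 2.38 CPM in overexpression. Irgm2, a GTPase of the gamma response, was at 3.31, 2.93 and 5.08 CPM against 10.04, 6.15 and 5.81 CPM. Cxcl9, a chemokine that draws T cells, had counts of 0, 0 and 4 against 52, 38 and 19. In these 3 genes all overexpression libraries lay above all controls, and each had an adjusted p of 0.822 in the edgeR test. Groups were apart in this way in 5 of the 25 genes, where 5.89% of tested genes had such groups. An unadjusted p under 0.05 was reached by 4 of the 34 type I and 4 of the 25 gamma-responsive targets, all higher (1.86% of tested genes), and by 2 and 2 without overexpression library 1, all higher (1.24%).

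Markers of leukocytes also differed between libraries, and in bulk tissue a change in the number of cells of a type cannot be told apart from a change in RNA per cell. Overexpression library 1 was the highest for 10 of 15 T and NK cell markers, 6 of 8 B and plasma cell markers and 6 of 7 monocyte markers, but for 1 of 8 neutrophil markers and 2 of 7 dendritic cell markers. Over all tested genes the share was 15%. That share covers only genes with enough counts to be tested, which most of the lymphocyte and monocyte markers did not have. Summed T and NK cell markers were at 3.03 to 7.45 CPM in the controls and at 8.08, 4.67 and 4.62 CPM in overexpression libraries 1 to 3. Cd8a had counts of 0, 6 and 7 against 99, 11 and 8, and Trbc1 was at 0 in every library. Only 3 of the 15 T and NK cell markers could be tested, 1 higher and 2 lower, and 0 had an unadjusted p under 0.05 by edgeR. Of the 8 B and plasma cell markers 3 could be tested, 2 higher and 1 lower. Summed B and plasma cell markers were at 14.7 to 31.9 CPM in the controls and 75.9, 14.3 and 30.7 CPM in overexpression, with counts of Igkc at 1, 1 and 1 against 621, 11 and 3. Summed monocyte markers were at 22.3 to 36.6 CPM in the controls and 75.5, 80.9 and 45.7 CPM in overexpression, and summed dendritic cell markers at 14.1 to 17.0 CPM and 16.7, 20.6 and 16.3 CPM.

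Summed neutrophil markers were highest in overexpression library 2, at 29.8, 47.6 and 12.7 CPM against 5.32 to 7.37 CPM in the controls. In library 2 the type I members had a median below the control mean (log2 difference of -0.21) and the gamma-responsive members one above it (0.32). Of the 6 neutrophil markers tested, 5 had an unadjusted p under 0.05 by edgeR, all higher (1.86% of tested genes), and 5 without library 1 (1.24%). In edgeR 0 passed the adjusted test, and DESeq2 called 2 (0.182% of its tested genes). Microglial markers, 10 in all, summed to 349 to 470 CPM in the controls and 461, 282 and 365 CPM in overexpression, so that library 1 lay inside the control range. Markers of choroid plexus and meninges, 9 in all, were at 18.4 to 29.8 CPM in the controls and 58.9, 29.2 and 20.5 CPM in overexpression, and 7 of them were highest in library 1 (15% of tested genes). Overexpression library 1 was thus the library with the most Wnt3, the highest level of every listed member, and the highest summed CPM of lymphocyte, choroid plexus and meningeal markers. For T and NK cell markers alone the sum was 8.08 CPM there, close to the 7.45 CPM of control 2. Endothelial markers, 8 in all, summed to 239, 220 and 214 CPM in the controls and 294, 394 and 266 CPM in overexpression. These sums, like those of neutrophil and monocyte markers, did not overlap between groups, and they were highest in library 2. An unadjusted p under 0.05 by edgeR was reached by 2 of the 8 endothelial genes, both higher (1.86% of tested genes on that side). Without library 1 it was reached by 3 of the 8, counted in either direction, and by 575 of the 22360 tested genes. The part of these markers, or of the level of Wnt3, in the interferon-stimulated gene values was not tested.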

How the data were processed

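RNA was extracted with Trizol and made into strand-specific TruSeq libraries, per the labels' protocols. Per the submitters' processing notes, the build was mm10 and the tools were STAR 2.5.3a, DESeq 1.16.1, Cuffnorm and FastQC 0.11.5, in roles that are not stated there. For the counter, annotation and strand setting the labels name nothing. The authors deposited raw counts in one table and TPM in another, with 1 column per library, matched through the library names in the labels. Gene coordinates are from GENCODE M21 and promoters from RefSeq, both on GRCm38.

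Counts were tested with edgeR 4.0.16 (quasi-likelihood F-test, TMM factors, filterByExpr with a minimum count of 10, a 2-group model, residual df of 4) in R 4.3.3, with Benjamini-Hochberg adjustment over 22360 tested genes at 0.05. The SE was taken as the absolute log2 fold change over the root of F. Library differences are log2 CPM (prior count 2) minus the control mean. DESeq2 1.42.0 and limma 3.58.1 served as alternatives, with other scalings, filters, log2(TPM + 1) and log2(TPM + 0.1), a replicate block and the omission of each library. The test was tried on simulated data. Members and lists were chosen with earlier results of these data known. Members are named by role: those with groups apart, the 3 with the smallest p, the most abundant, and Irf1, Irf7, Irf9 and Stat2. Isg15, Ifit3b, Oas3, Oasl1, Gbp5, Rsad2, Ifi27l2a, Dhx58, Cd8a, Igkc and Trbc1 were added after their values were seen. Sting1 and Cgas were matched through older symbols. One gene that the rule would name is not reported here.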

Additional observations from a re-analysis of the deposited data

How the results depend on the processing

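No member passed an adjusted p of 0.05 in any setting run, edgeR with each library left out included. DESeq2 called 64 genes where edgeR called 0, and 120 without control 2 and 29 without overexpression library 1 (both added after seeing the data), with 0 members among the 64. All 35 tested members were above 0 with all libraries, 34 with a replicate block, 19 to 36 when 1 library was left out, and 21 in DESeq2 without overexpression library 1. The replicate block called 0 genes and gave a member median of 0.47, a type I median of 0.47 and a gamma-responsive median of 0.43. Control and overexpression libraries of the same number deviated together with correlations of 0.06, -0.02 and -0.01, so the numbers were not taken as pairs. The log2 fold change of Wnt3, the overexpressed gene, was 1.94 to 4.66 with 1 library left out, and 1.95 (adjusted p = 0.000418) in DESeq2 without overexpression library 1. DESeq2 with all libraries gave no p-value for Wnt3, so no value is given from that fit.

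With 1 library left out, the member median ran from 0.05 to 0.90, the type I median from -0.00 to 0.98 and the gamma-responsive median from 0.23 to 0.61, each lowest without overexpression library 1. Omitting that library turned 16 members below 0. The ranges over omitted libraries were -0.41 to 1.40 for Ifit1, -0.35 to 0.85 for Ifit3, -0.34 to 0.70 for Ifit3b, -0.34 to 0.95 for Isg15, -0.27 to 1.01 for Irf7, -0.075 to 0.28 for Irf9 and -0.26 to 1.17 for Oas1a. They were -0.24 to 1.77 for Oasl2, -0.50 to 0.67 for Mx2, -0.26 to 1.56 for Usp18, -1.04 to 0.53 for Ifi27l2a, -0.72 to 1.57 for Ifi44, -0.52 to 0.72 for Bst2 and -0.27 to 0.41 for Gbp3. They were -0.0056 to 0.50 for Rtp4, -0.0037 to 0.56 for Eif2ak2, -0.064 to 0.19 for Ifngr2, -0.039 to 0.044 for Ifnar1 and -0.23 to 0.21 for Ifnar2.

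DESeq2 without overexpression library 1 gave -0.41 for Ifit1, -0.34 for Ifit3, -0.33 for Ifit3b and Isg15, -0.27 for Irf7 and Gbp3, -0.051 for Irf9, -0.26 for Oas1a and Usp18, -0.24 for Oasl2, -0.49 for Mx2, -1.04 for Ifi27l2a, -0.72 for Ifi44, -0.52 for Bst2, -0.00040 for Rtp4 and -0.036 for Ifngr2. Without control 2 it gave -0.040 for Ifnar1 and 0.21 for Ifnar2. Ifi27l2a was at -0.31 with limma voom, -0.058 on log2(TPM + 0.1), -0.24 with the replicate block and -0.011 on log2(TPM + 1) with Bc1 left out. Ifnar1 was at -0.0036 with upper-quartile factors and -0.0038 at a minimum count of 50. Ifnar2 was at 0.14 on log2(TPM + 1), with or without a TPM minimum, 0.15 on log2(TPM + 0.1) and 0.11 with Bc1 left out. The median log2 difference of all genes, close to 0 in edgeR, was 0.18 on log2(TPM + 1), 0.23 on log2(TPM + 0.1) and 0.15 with Bc1 left out, so the TPM values are to be read against it. The cause of these turns was not tested. With 3 libraries per group and members at few CPM, differences the size of most member fold changes could not be told from the scatter between libraries.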
